A study of Rattus norvegicus with 16 samples.

Results

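The pineal gland and the retina of the rat (Rattus norvegicus) were compared on 15 of the 16 arrays of the series: the 4 arrays with Pineal in the title and the 11 retina arrays left once the first retina array at CT12 was set aside. The samples were total RNA, and each array is titled with hour 6 or hour 12 on the scale ZT or CT. ZT is Zeitgeber time, conventionally counted from lights on, and CT is circadian time, counted by the internal clock. The retina groups were ZT6, ZT12 and CT6 with 3 arrays each and CT12 with 2, and the pineal had 1 array per condition. Strain, age, sex, lighting, pooling of animals and dissection are not stated in the labels, and no genotype or drug is named. The labels are also silent on whether arrays came from separate animals, and p-values therefore reflect only how far these samples vary, which may be technical. All 8740 probe sets other than controls were tested without a filter on brightness, which keeps genes bright in 1 tissue only, and 4736 genes were named from them.

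The pineal gland is the endocrine source of circulating melatonin. Its main cell, the pinealocyte, is related to the retinal photoreceptor and shares with it part of the phototransduction machinery, but in mammals it takes its timing from sympathetic noradrenaline released at night under the control of the hypothalamic clock. Melatonin is made from tryptophan in 4 enzymatic steps: hydroxylation by Tph1, decarboxylation to serotonin by Ddc, acetylation by Aanat and methylation by Asmt. The retina is a layered neural tissue of rods, cones, bipolar, horizontal, amacrine and ganglion cells with Muller glia, and makes melatonin locally in small amounts.

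The labels and the arrays were checked first. The source label of every pineal array names retina, so the tissue assignment rests on the titles. The 4 pineal arrays correlated with each other at Spearman 0.934 to 0.952 and with retina arrays at 0.706 to 0.753, while retina arrays correlated with each other at 0.922 to 0.967 (across probe sets, which are not independent replicates). The pineal ZT12 array is described with 6 h in another label field, and the pineal enzyme Aanat there (13.47) lay beside the pineal CT12 array (14.08), not beside the hour 6 arrays (9.54 and 9.22). Of 7 pinealocyte markers, 6 were measured, of which Aanat, Asmt and Tph1 were higher in pineal and Sag, Drd4 and Adrb1 were lower. The rod markers Gnat1, Pde6a, Pde6b, Rcvrn and Nrl and the shared factor Crx were not analysed here. Gene values below are log2 of the intensity plus 16 after quantile normalization unless another setting is named. The control intensities and ratios of the next paragraph are taken from the deposited linear values. Differences are pineal minus retina ± SE from the fit (n = 4 pineal and 11 retina arrays). A gene is called higher or lower where its adjusted p fell below 0.05. A whole-tissue array cannot tell fewer cells of a type from less RNA per cell.

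Control probe sets along the Gapdh and beta-actin transcripts differed between the tissues in a way that bears on every comparison. The Gapdh 3′ over 5′ intensity ratio was 13.67 to 17.89 on the pineal arrays and 1.071 to 1.206 on the retina arrays. The beta-actin ratio was 5.144 to 8.717 on pineal and 1.083 to 1.455 on retina arrays. The groups did not overlap for either control. The 5′ Gapdh control reached 971 to 1572 intensity units on pineal arrays against 111896 to 136006 on retina arrays, and the 3′ control 15168 to 27768 against 124652 to 161986. This difference runs exactly with tissue, so its part in the differences below cannot be told apart from the tissue. Probe sets were also split by the design name they carry. Of the 638 named for a coding sequence, 40.6% were lower and 23.5% higher in pineal, against 28.3% and 37% of all probe sets. Of the 76 named for an untranslated region, 9.21% were lower and 43.4% higher, and 0 were lower by 8-fold or more, against 76 (11.9%) of those named for a coding sequence. Of the 3417 whose name starts with rc_, 21.9% were lower, 46.4% higher and 3.31% lower by 8-fold or more. For the 4609 with other names these shares were 31.6%, 31.9% and 6.73%. The part of the position along the transcript in these shares was not tested.

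**Figure D1:**
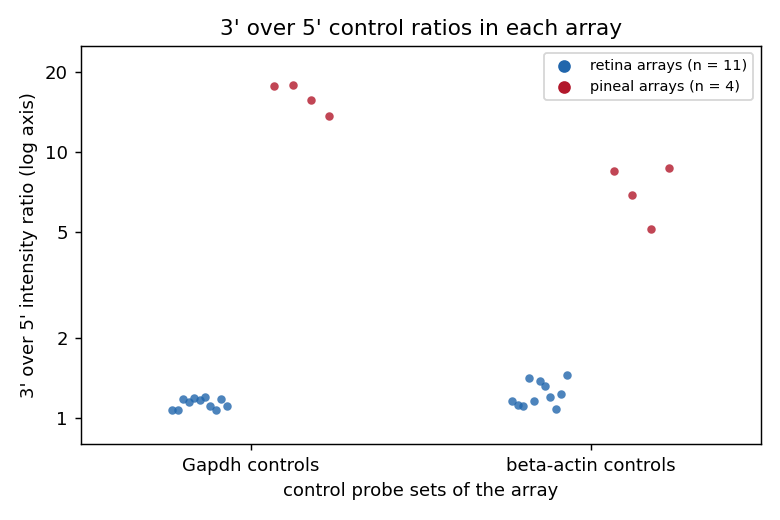
The 3′ over 5′ intensity ratio (log axis) of the Gapdh and beta-actin control probe sets, 1 point per array. Pineal arrays lie between 13.67 and 17.89 for Gapdh, and all 11 retina arrays lie below 1.5 for both controls.

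Across the array 3236 probe sets (37%) were higher and 2470 (28.3%) lower in pineal by limma. By gene, taking for each the probe set with the highest level in its brighter tissue, 2010 genes (42.4%) were higher, 1239 (26.2%) lower and 1487 did not pass, and the median difference of all genes was 0.35. In 1382 genes (29.2%) all 4 pineal arrays lay above all 11 retina arrays, and in 875 (18.5%) all lay below. The split of calls depended on the scaling. With values as deposited 2277 probe sets were higher and 2997 lower, so that 43.2% of calls were higher in place of 56.7%. With arrays set to a common median 3754 were higher and 2196 lower, so that 63.1% of calls were higher. List counts given below for another scaling are to be read against the split under that scaling. The median over all probe sets moved from 0.23 to -0.08 and 0.41, so small differences carry no firm sign, while the large ones named below far exceed this shift. At 8-fold or more 127 genes were higher and 232 lower, and at 32-fold or more 14 and 48. Of the 5706 called probe sets, 5360 had the same sign in each of the 4 conditions.

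**Figure D2:**
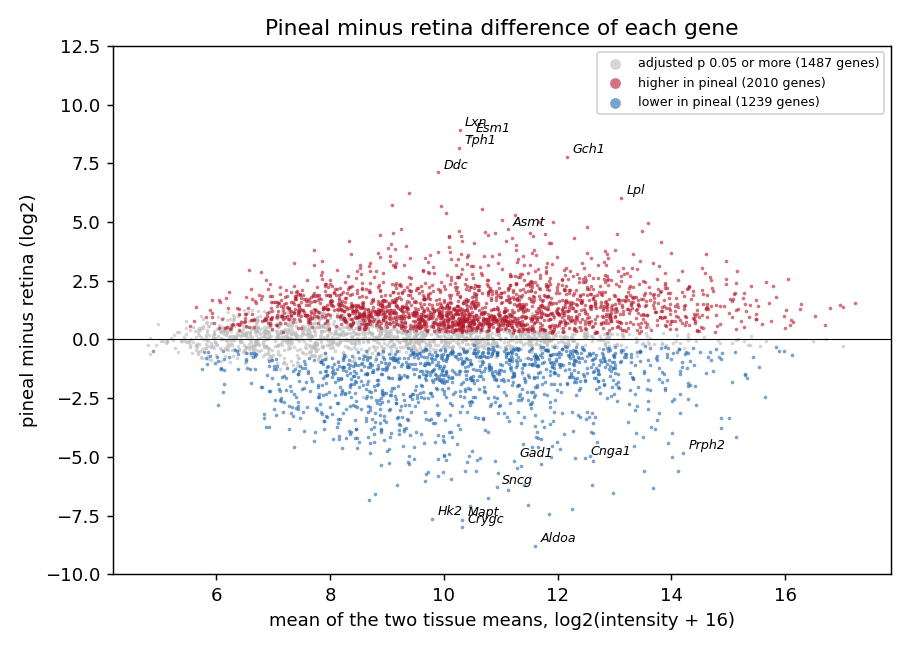
Pineal minus retina difference from the fit, in log2 units, against the average of the pineal and retina means. Points are the 4736 named genes, coloured by the call at adjusted p 0.05. Lxn, Esm1, Tph1, Gch1 and Ddc lie above 7 and Aldoa, Crygc, Mapt and Hk2 below -7.

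Genes of melatonin synthesis were among the largest differences on the array. Of 15 genes listed for the pathway and its cofactor, 14 were measured, 10 were higher and 2 lower in pineal (all genes: 42.4% higher, 26.2% lower), and the list median was 1.05 against 0.35 for all genes. Tryptophan hydroxylase Tph1, which starts the pathway, read 14.61, 14.003, 14.55 and 14.12 on the pineal arrays (ZT6, ZT12, CT6, CT12 in this order here and below) and 4.70 to 7.89 with a median of 6.17 on the retina arrays. The groups lay far apart, with a difference of 8.15 ± 0.43 (284-fold, adjusted p = 2.96e-09). As the retina level lies near the bottom of the scale, the size depends on the offset added before the log, and was 7.35 to 8.60 over offsets of 64, 16 and 1. Aromatic amino acid decarboxylase Ddc read 13.17, 13.47, 13.30 and 13.91 in pineal and 5.90 to 6.69 in retina (median 6.39), a difference of 7.11 ± 0.17 (138-fold, adjusted p = 4.41e-12; 6.44 to 7.41 over these offsets).

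Aanat, whose activity sets the nightly rate of melatonin synthesis, read 9.54, 13.47, 9.22 and 14.08 in pineal and 7.08 to 9.05 in retina (median 7.70). Both hour 12 pineal arrays were high, and both hour 6 pineal arrays exceeded the highest retina array by little. The difference over conditions was 3.59 ± 0.61 (adjusted p = 0.00018). Asmt, which completes melatonin, stood at 13.46, 13.30, 13.69 and 13.30 in pineal and at 7.22 to 9.40 in retina (median 8.82). Unlike Aanat it was even over the 4 pineal arrays, with a difference of 4.68 ± 0.28 (25.7-fold, adjusted p = 1.07e-08).

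The cofactor tetrahydrobiopterin is needed by Tph1. Its first enzyme Gch1 read 16.19, 15.90, 16.10 and 15.95 in pineal and 7.24 to 8.82 in retina (median 8.42), a difference of 7.77 ± 0.20 that all 4 of its probe sets shared in direction. The other Gch1 sets gave 6.02, 2.67 and 1.51. The next enzymes were higher by less. Pts differed by 1.21 ± 0.12 (adjusted p = 1.8e-06), Spr by 0.66 ± 0.18 (adjusted p = 0.00515) and Qdpr, which regenerates the cofactor, by 0.56 ± 0.12 (adjusted p = 0.0011). The Spr call was lost with values as deposited (0.25), and Qdpr has a probe set lower in pineal, which turns its median over probe sets to -0.82. Gchfr, the feedback regulator of Gch1, differed by 0.34 ± 0.45 (adjusted p = 0.534).

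Enzymes and carriers of monoamines did not move as one. Monoamine oxidase B, which deaminates monoamines, read 13.66, 13.998, 13.58 and 13.88 in pineal and 8.63 to 9.74 in retina, a difference of 4.54 ± 0.16. Monoamine oxidase A was lower by a difference of -0.88 ± 0.12 (adjusted p = 2.79e-05). The amino acid carrier Slc7a5, which moves tryptophan among other amino acids, was lower at -2.15 ± 0.42. The vesicular carrier Slc18a1 was higher by 0.90 ± 0.29 (adjusted p = 0.0155) with overlapping groups, and this call was lost with values as deposited (0.39) and without the pineal ZT12 (0.74) or pineal CT12 array (0.66). Slc18a2 differed by 0.11 ± 0.32 (adjusted p = 0.772).

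**Figure D3:**
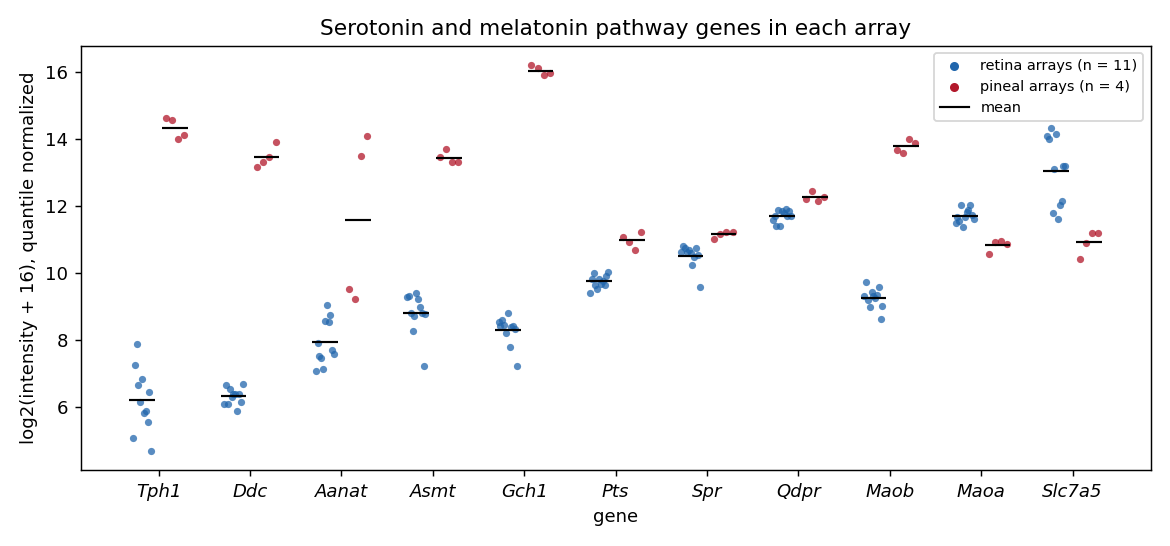
Log2 level of 11 serotonin and melatonin pathway genes on each array, with blue points for retina (n = 11), red points for pineal (n = 4) and bars for the means. Tph1, Ddc, Asmt, Gch1 and Maob are separated by more than 3 log2 units, and the pineal points of Aanat fall into a pair near 9 and a pair near 14.

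Promoters are shown for Aanat, Asmt and Tph1 and for the pair of genes with the largest differences in each direction. The sequences are RefSeq's on build GRCr8, from 250 bases before to 50 bases after the annotated start, 5′ to 3′ along the gene. Capitals mark matches, on either strand, to TAATCC (the core bound by Crx and Otx factors of photoreceptors and pinealocytes), TGACG (the core of the cyclic AMP response element) or CACGTG (the E-box bound by clock factors). TGACG and its complement overlap within the full palindromic element near the 5′ end of the Asmt window and form 1 capital run there.

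Aanat, chr10:102326073-102326372, forward strand: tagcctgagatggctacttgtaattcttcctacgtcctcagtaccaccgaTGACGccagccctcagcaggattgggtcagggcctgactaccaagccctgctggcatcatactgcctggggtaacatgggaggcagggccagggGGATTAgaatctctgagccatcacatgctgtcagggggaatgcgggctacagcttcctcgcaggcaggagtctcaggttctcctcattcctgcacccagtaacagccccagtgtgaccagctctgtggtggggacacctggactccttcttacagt
Asmt, chr12:21423287-21423586, reverse strand: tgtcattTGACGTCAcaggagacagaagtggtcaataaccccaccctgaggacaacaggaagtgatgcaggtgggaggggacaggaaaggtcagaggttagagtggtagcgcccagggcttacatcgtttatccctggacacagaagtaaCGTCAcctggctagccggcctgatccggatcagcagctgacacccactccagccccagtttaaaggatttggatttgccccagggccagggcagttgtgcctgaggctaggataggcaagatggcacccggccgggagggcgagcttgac
Tph1, chr1:106314579-106314878, reverse strand: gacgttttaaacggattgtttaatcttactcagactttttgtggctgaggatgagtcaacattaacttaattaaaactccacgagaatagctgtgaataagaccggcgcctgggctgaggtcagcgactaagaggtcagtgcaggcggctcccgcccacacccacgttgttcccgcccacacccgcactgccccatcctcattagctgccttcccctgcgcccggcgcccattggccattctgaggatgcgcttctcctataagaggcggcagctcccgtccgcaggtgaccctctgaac
Lxn, chr2:154043424-154043723, reverse strand: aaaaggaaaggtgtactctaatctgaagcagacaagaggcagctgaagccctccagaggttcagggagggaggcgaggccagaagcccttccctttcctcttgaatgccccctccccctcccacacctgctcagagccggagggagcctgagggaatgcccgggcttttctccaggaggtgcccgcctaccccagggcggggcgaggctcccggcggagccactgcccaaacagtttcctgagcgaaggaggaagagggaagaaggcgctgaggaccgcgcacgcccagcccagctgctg
Esm1, chr2:46609003-46609302, forward strand: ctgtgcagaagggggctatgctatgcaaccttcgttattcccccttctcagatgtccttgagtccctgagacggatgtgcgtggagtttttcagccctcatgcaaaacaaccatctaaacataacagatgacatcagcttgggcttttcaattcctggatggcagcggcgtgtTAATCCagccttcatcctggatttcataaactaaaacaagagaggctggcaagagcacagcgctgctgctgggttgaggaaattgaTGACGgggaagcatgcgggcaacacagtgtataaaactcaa
Aldoa, chr1:190837972-190838271, reverse strand: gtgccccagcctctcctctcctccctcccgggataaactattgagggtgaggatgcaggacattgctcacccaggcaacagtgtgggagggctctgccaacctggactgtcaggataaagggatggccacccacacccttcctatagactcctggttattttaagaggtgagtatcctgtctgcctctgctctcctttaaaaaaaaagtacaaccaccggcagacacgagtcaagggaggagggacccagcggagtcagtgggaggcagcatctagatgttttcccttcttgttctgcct
Crygc, chr9:73947298-73947597, reverse strand: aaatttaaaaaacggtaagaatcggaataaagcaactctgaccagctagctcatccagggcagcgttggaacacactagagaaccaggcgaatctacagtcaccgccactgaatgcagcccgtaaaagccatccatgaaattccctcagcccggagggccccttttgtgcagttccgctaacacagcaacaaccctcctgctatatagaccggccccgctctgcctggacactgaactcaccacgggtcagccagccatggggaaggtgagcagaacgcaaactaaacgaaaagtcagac

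The Aanat window held 1 TAATCC match, on the reverse strand, and 1 TGACG match. The Asmt window held 3 TGACG matches and the Esm1 window 1 of each of these motifs, while the other 4 windows held no match to any of the 3 motifs. TGACG was found in 5 of the 13 melatonin genes with a promoter in the table (38.5%), against 28.5% of 3879 genes on the array and 22% of all 27457 promoters. TAATCC was found in 1 of these 13 genes, in 3 of 12 rod genes (25%), in 3 of 12 lens genes (25%) and in 5.72% of genes on the array. CACGTG was found in 1 of the 13 melatonin genes and in 8.48% of genes on the array. Among genes past 8-fold, TGACG was in 27.7% of 101 higher and 31.1% of 196 lower promoters, both near the share of the array. A match describes these letters only and is not shown to be a bound site.

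Outside the melatonin pathway, the largest higher difference was that of latexin (Lxn), a carboxypeptidase inhibitor. It read 14.36, 15.41, 13.86 and 15.39 in pineal and 5.11 to 6.85 in retina (median 5.89), a difference of 8.93 ± 0.31 (488-fold, adjusted p = 7.11e-11). Esm1, a proteoglycan secreted by endothelial cells, read 14.69, 14.57, 14.95 and 15.06 in pineal and 4.97 to 7.21 in retina, a difference of 8.67 ± 0.38. The levels of both were near the bottom of the scale in retina, so the size again depends on the offset, from 8.02 to 9.42 for Lxn and from 7.86 to 9.11 for Esm1. Lipoprotein lipase (Lpl), which releases fatty acids from lipoproteins, read 16.37, 15.79, 16.33 and 16.11 in pineal and 8.45 to 11.06 in retina, a difference of 6.04 ± 0.34 with all 3 probe sets higher. The other Lpl sets gave 3.97 and 2.74. The kinase Map4k1 differed by 6.22 ± 0.37, the matrix protein Thbs4 by 5.71 ± 0.34, Wipf3 by 5.68 ± 0.40, Tc2n by 5.55 ± 0.46 and the antigen-presenting molecule Cd1d1 by 5.28 ± 0.25. Kcnh6, a voltage-gated potassium channel, differed by 5.02 ± 0.16 with a pineal SD of 0.30. Fcer1a, the alpha chain of the IgE receptor, differed by 5.08 ± 0.61 and depended on the hour (given with the hour below). The mitochondrial dicarboxylate carrier Slc25a10 differed by 4.99 ± 0.37, but 1 of its 3 probe sets was lower in pineal.

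Signalling genes through which noradrenaline acts were called in both directions. Of 29 measured genes of adrenergic and cyclic AMP signalling, 9 were higher and 7 lower (median -0.14) against 42.4% and 26.2% of all genes. With values as deposited the order turned to 6 higher and 14 lower, as it turned for all probe sets (2277 higher and 2997 lower). Adcy2, an adenylate cyclase, was higher at 15.29 ± 0.12 (SD, n = 4) against 12.04 ± 0.36 (SD, n = 11), a difference of 3.27 ± 0.20. The kinase regulatory subunit Prkar2b differed by 2.91 ± 0.23 and the alpha adrenergic receptor Adra1b, which mediates part of the pineal response to noradrenaline, by 2.18 ± 0.19 (adjusted p = 3.43e-07). Adrb1, the beta adrenergic receptor of the pinealocyte, read lower at 6.36, 7.10, 6.60 and 6.01 in pineal against 9.91 to 10.72 in retina, a difference of -3.82 ± 0.13. This runs against the labelled tissue, and it comes from 1 probe set. The part of the 3′ over 5′ ratios given above in this difference was not tested. Creb1, the factor that binds cyclic AMP response elements, differed by -2.54 ± 0.18, Adcy6 by -2.35 ± 0.22 and the VIP receptor Vipr2 by -2.29 ± 0.16.

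Phototransduction genes were mostly lower in pineal but several stayed bright there. Of 14 measured rod genes, 11 were lower and 3 higher (median -1.65), where 26.2% of all genes were lower and 42.4% higher. The cyclic GMP-gated channel subunit Cnga1 read 10.07, 9.82, 9.97 and 9.91 in pineal and 14.42 to 15.23 in retina (median 15.09), a difference of -5.07 ± 0.13. Peripherin (Prph2), which shapes the outer segment disc rim, read 11.88, 11.54, 11.97 and 11.76 against 16.22 to 16.90, a difference of -4.83 ± 0.13. The groups did not overlap in either gene. Rod arrestin Sag, which ends the light response and is a known pinealocyte protein, read 13.04, 13.22, 12.80 and 13.10 in pineal and 16.11 to 17.64 in retina (median 17.39), a difference of -4.16 ± 0.22 (17.8-fold). Unc119, Cngb1, Rom1 and the photoreceptor kinase Grk1 were lower by -3.35, -3.01, -1.71 and -1.59. For Grk1 the call was lost when the 16th array was included (-1.24).

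Phosducin (Pdc), which binds G protein beta gamma subunits, was nearly as bright in pineal as in retina. It read 15.99, 15.25, 15.97 and 15.66 in pineal and 15.83 to 16.45 in retina (median 16.24). Its difference of -0.51 ± 0.12 (adjusted p = 0.00316) turned to 0.10 with a common median, so no direction holds over the scalings. Against the rest of the list, Rgs9, which speeds the shut-off of transducin, read 10.98, 11.50, 10.78 and 10.97 in pineal and 6.76 to 8.67 in retina, a difference of 3.85 ± 0.23. The G protein subunit Gnb1 differed by 1.98 ± 0.28, with 1 of its 3 probe sets lower, and Gucy2e, a photoreceptor guanylate cyclase, by 0.64 ± 0.17 (0.15 with values as deposited, where it was not called). Cone opsins were lower, Opn1mw by -1.64 ± 0.20 and Opn1sw by -1.04 ± 0.17, and the cone G protein subunit Gnb3 by -0.91 ± 0.17, a call lost when the 16th array was included (-0.68). Cnga3, the cone channel subunit, was higher at 1.11 ± 0.34 (adjusted p = 0.0111) with overlapping groups, and this call was lost with values as deposited (0.59). Cone arrestin Arr3 stood near 5 in both tissues and did not pass (0.39 ± 0.35, adjusted p = 0.346). Of 13 measured transcription factors of photoreceptors and neurons, 4 were higher and 4 lower (all genes: 42.4% and 26.2%), with 2 and 5 for values as deposited and 6 and 3 with a common median. The split of all probe sets moved the same way with the scaling, and no direction of this list was established. Isl1, a factor of retinal inner neurons, differed by -3.94 ± 0.24, and Ptf1a, which specifies amacrine and horizontal cells, by 2.86 ± 0.42 from a pineal mean of 8.23 ± 1.58 (SD, n = 4). Neurod1, which is expressed in photoreceptors and pinealocytes, was higher by 0.49 ± 0.15 with overlapping groups, and its call was lost without the pineal CT6 array (0.38).

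Genes of inner retinal neurons and glia were mostly lower in pineal. All 5 measured bipolar genes were lower (median -3.81), as were 12 of 20 amacrine and horizontal genes (median -0.98), 12 of 15 ganglion cell genes (median -3.90) and 10 of 13 genes of Muller glia and astrocytes (median -1.48), against 26.2% of all genes. The counts of higher genes in these lists were 0, 2, 1 and 2. With values as deposited, 5, 15, 13 and 10 were lower, and with a common median 5, 12, 12 and 9. The part of the 3′ over 5′ ratio in these counts was not tested.

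The GABA-synthesizing enzyme Gad1 read 8.62, 8.42, 8.57 and 8.98 in pineal and 13.28 to 14.03 in retina, a difference of -5.17 ± 0.15 (36-fold). The vesicular GABA and glycine carrier Slc32a1 differed by the same -5.17 ± 0.11, with both probe sets lower, and the amacrine marker Calb2 by -4.36 ± 0.18. In the rod bipolar cell, Prkca differed by -4.20 ± 0.34 and the glutamate receptor Grm6 by -1.71 ± 0.18. Among ganglion cell genes, the microtubule protein Mapt read 7.25, 7.23, 6.07 and 5.28 against 13.81 to 14.57, a difference of -7.69 ± 0.24 shared in direction by all 3 probe sets, and gamma synuclein (Sncg) differed by -6.30 ± 0.19. The other Mapt sets differed by less (-2.56 and -1.38). Of the neurofilament genes, Ina differed by -5.29 ± 0.17, Nefm by -5.21 ± 0.27 and Nefl by -4.60 ± 0.19. Glutamine synthetase (Glul), the glutamate-clearing enzyme of Muller glia, read 12.17, 11.14, 11.38 and 11.27 against 15.85 to 16.90, a difference of -5.00 ± 0.18 with all 4 probe sets lower. The other Glul sets gave -5.26, -1.43 and -0.74. Aldoc differed by -5.61 ± 0.11, the gap junction protein Gja1 by -4.84 ± 0.97 and the water channel Aqp4 by -3.25 ± 0.37.

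**Figure D4:**
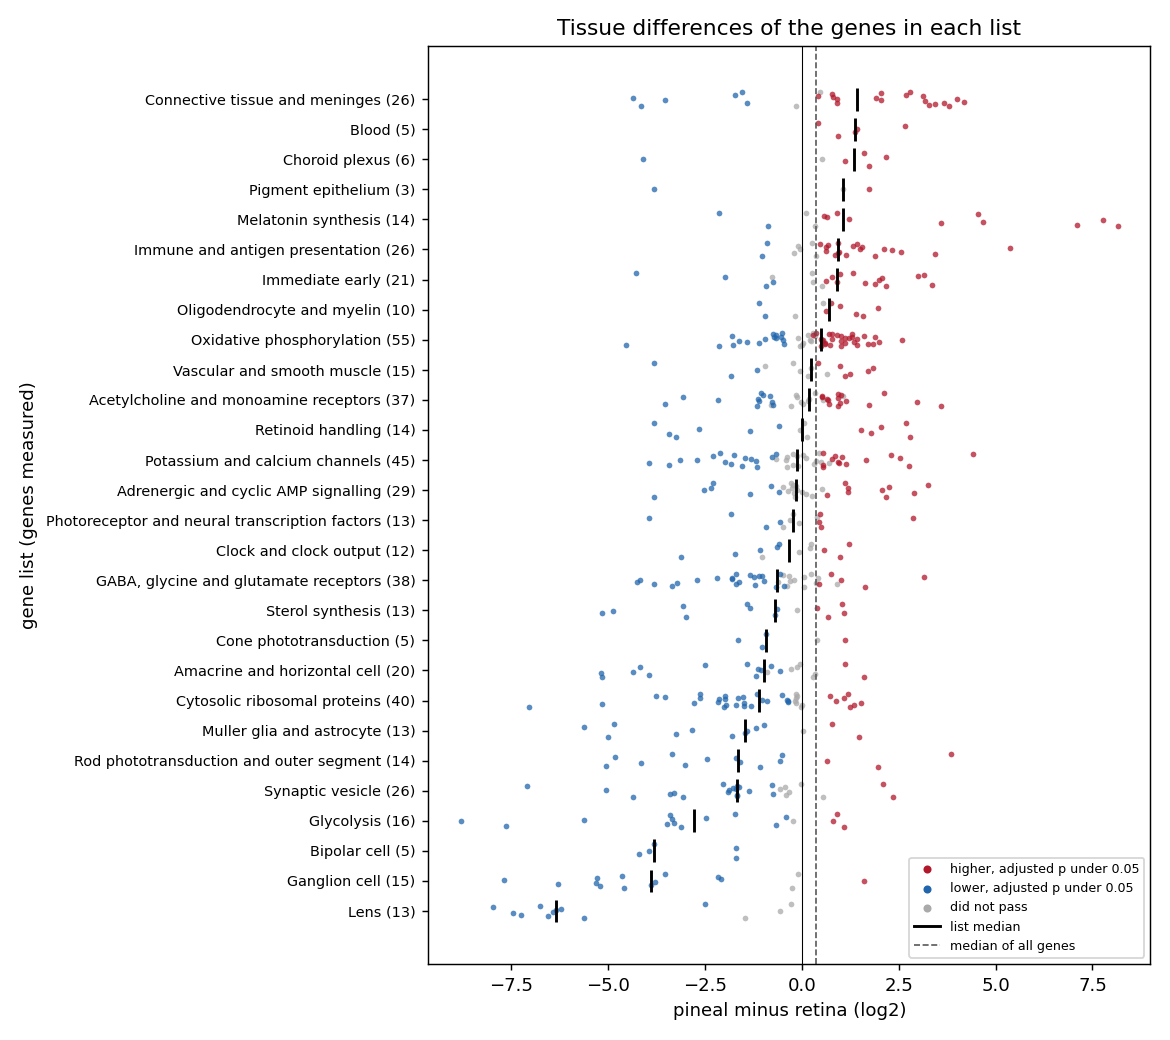
Pineal minus retina differences of the measured genes in 28 lists, 1 point per gene coloured by its call, with a black bar at each list median and a dashed line at the median of all genes (0.35). Lens, ganglion cell and bipolar lists have the lowest medians (-6.34, -3.90 and -3.81), and the connective tissue list has the highest (1.42).

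Synaptic genes followed the neuronal lists. Of 26 synaptic vesicle genes, 18 were lower and 2 higher (median -1.67), against 26.2% and 42.4% of all genes. The vesicle fusion ATPase Nsf differed by -7.10 ± 0.32, Rab3a by -5.06 ± 0.28, the calcium sensor Syt1 by -4.36 ± 0.39 and Vamp2 by -3.30 ± 0.15. Of 38 receptors for GABA, glycine and glutamate, 21 were lower and 5 higher (median -0.64), against the same shares. Glra2 differed by -4.25 ± 0.18 and the AMPA receptor subunit Gria2 by -4.18 ± 0.21, whereas the NMDA receptor subunit Grin2c was higher by 3.17 ± 0.16 with both probe sets higher.

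Receptors for acetylcholine and monoamines were called in both directions at shares near those of all genes. Of 37 measured, 15 were higher and 11 lower (all genes: 42.4% and 26.2%), and with values as deposited 4 were higher and 15 lower. The split of all probe sets turned the same way with values as deposited (2277 higher and 2997 lower), and no direction of this list was established. The nicotinic subunit Chrna3 read 13.45, 13.66, 12.88 and 13.69 in pineal and 9.28 to 10.28 in retina (median 9.88), a difference of 3.59 ± 0.18 (12.1-fold, adjusted p = 2.35e-09). Its partner Chrnb4, from a neighbouring gene, differed by 2.97 ± 0.18, with 1 of its 2 probe sets called. Chrna6 and Chrnb3, which also pair with each other, were lower by -3.52 ± 0.19 and -2.17 ± 0.28. The dopamine receptor Drd2 differed by -3.07 ± 0.21 and the serotonin receptor Htr7 by 2.12 ± 0.40. Drd4, a dopamine receptor of both photoreceptors and pinealocytes, differed by -0.82 ± 0.30 (adjusted p = 0.0282) with overlapping groups. Of 45 potassium and calcium channel genes, 14 were higher and 16 lower (all genes: 42.4% and 26.2%), and with a common median 16 were higher and 15 lower. The calcium channel subunit Cacna2d1 differed by 4.43 ± 0.21 and the A-type potassium channel Kcnd2 by 2.76 ± 0.16, while Kcnab1 differed by -3.93 ± 0.28, Kcna5 by -3.43 ± 0.15 and Kcnh2 by -3.14 ± 0.11.

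Most lens crystallins were lower in pineal, but their level in retina varied widely between arrays. Of 13 measured lens genes, 10 were lower and 0 higher (median -6.34), against 26.2% and 42.4% of all genes. Crygc read 6.99, 6.04, 6.56 and 5.99 in pineal and 10.32 to 16.99 in retina (median 14.21), a difference of -7.97 ± 0.94. The summed lens level ranged from 15.74 to 20.80 log2 units over the retina arrays and from 13.43 to 13.69 over the pineal arrays. Cryba4, Cryba1 and Crygd differed by -7.45 ± 0.89, -7.24 ± 0.85 and -6.77 ± 0.93. The standard errors of these genes were several times those of the rod genes. Lens RNA in the retina samples and crystallin expression by retinal cells were not told apart.

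Connective tissue and meningeal genes leaned to pineal, with 18 of 26 higher and 6 lower (median 1.42) against 42.4% higher and 26.2% lower over all genes. Igfbp3 differed by 3.995 ± 0.37 and the collagen Col5a2 by 3.66 ± 0.23, both without overlap. Col1a1 read 14.05, 13.53, 13.67 and 12.85 in pineal and 8.11 to 13.56 in retina (median 9.08), a difference of 3.80 ± 0.74. Decorin (Dcn) read 14.41, 13.64, 12.88 and 12.02 in pineal and 6.23 to 13.64 in retina (median 8.27), a difference of 4.18 ± 1.52 (adjusted p = 0.028). For both genes the second retina array at CT12 was the brightest of the retina arrays (13.56 and 13.64). The Dcn call was lost without any 1 of the pineal arrays ZT6 (3.20), CT6 (4.27) or ZT12 (3.92). Against the list, the prostaglandin D synthase Ptgds was lower by -4.35 ± 0.33 and Sparc by -4.15 ± 0.16.

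Immune genes were also mostly higher, 19 of 26, with 2 lower (median 0.94), where 42.4% of all genes were higher and 26.2% lower. With values as deposited 10 were higher and 4 lower, where 2277 of all 8740 probe sets were higher and 2997 lower. The cytokine Il18 read 12.43, 13.06, 12.52 and 12.97 in pineal and 6.14 to 8.40 in retina, a difference of 5.38 ± 0.34 (41.7-fold). The class II molecule RT1-Da differed by 3.43 ± 0.30, the class I light chain B2m by 2.56 ± 0.23 and the macrophage lysozyme Lyz2 by 2.34 ± 0.20. All 5 blood genes were higher (median 1.36), led by the platelet chemokine Pf4 at 2.67 ± 0.40. The beta globin set Hbb differed by 0.94 ± 0.38 (adjusted p = 0.0447), a call that 15 of the alternatives ended. Against the same shares of all genes, 6 of 10 oligodendrocyte genes were higher and 2 lower, and with values as deposited 3 and 3. Mog differed by 1.40 ± 0.16 and Mbp by 1.57 ± 0.41. Transthyretin (Ttr), a product of choroid plexus and pigment epithelium, was higher by 1.75 ± 0.35, whereas Rpe65, the pigment epithelium isomerase, was lower by -3.81 ± 0.49 with a pineal mean of 5.42. Of 15 vascular genes 6 were higher and 3 lower, near the shares of all genes, and with values as deposited 2 and 3. Of the 3 lower genes, the endothelial receptor Kdr differed by -1.82 ± 0.21 and the iron uptake receptor Tfrc by -3.83 ± 0.15. Of the 6 higher genes, Myh11 differed by 1.72 in its brightest probe set. Its other sets were not called, and the call was lost with values as deposited (1.24). The part of these other cell types in the differences of the remaining genes was not tested.

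Among metabolic genes, glycolysis was lower in pineal, with 12 of 16 genes lower and 3 higher (median -2.79), against 26.2% and 42.4% of all genes. Aldolase A (Aldoa) gave the largest lower difference of the array. It read 7.31, 5.36, 8.62 and 7.55 in pineal and 15.66 to 16.27 in retina (median 16.03), a difference of -8.80 ± 0.36 (446-fold, adjusted p = 3.77e-10; -9.05 to -8.30 over the offsets) from a single probe set. Hexokinase 2 (Hk2), which traps glucose in the cell, read 6.24, 5.77, 5.96 and 5.93 in pineal and 13.10 to 14.14 in retina, a difference of -7.65 ± 0.14 with both probe sets lower. The other Hk2 set differed by only -1.95, with a pineal mean of 11.22, so the size depends on the probe set. Hk1 differed by -3.12 ± 0.19, Pfkl by -3.49 ± 0.12 and the lactate carrier Slc16a1 by -3.39 ± 0.26. Pgk1 and Ldhb were higher, by 1.09 ± 0.10 and 0.91 ± 0.11, with all of their probe sets higher. Enolase 1 (Eno1) was lower by -3.36 ± 0.17 in its brightest probe set and differed by -0.03 in its other one.

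Sterol synthesis genes were lower in 8 of 13 cases and higher in 4 (median -0.69), again against 26.2% and 42.4% of all genes. Farnesyl diphosphate synthase (Fdps) differed by -5.15 ± 0.16, squalene synthase (Fdft1) by -4.88 ± 0.15 with all 4 probe sets lower, and the regulator Srebf1 by -3.08 ± 0.14. The other Fdft1 sets gave -2.38, -1.29 and -0.97, and the other Fdps sets -3.11 and 0.09. Of 55 oxidative phosphorylation genes, 30 were higher and 16 lower (all genes: 42.4% and 26.2%), with a median of 0.49 against 0.35 for all genes. With values as deposited 31 were higher and 16 lower (median 0.53), and with a common median 37 and 8 (median 1.07). The medians over all probe sets under these scalings were -0.08 and 0.41. These counts take the brightest probe set of each gene, and other sets of several genes called higher were lower. Cox8a was higher by 1.02 in that set and differed by -3.38, -2.05 and -1.04 in its others. Cox4i1 was higher by 0.60 and differed by -2.58 and -3.60 in its others. For Ndufs4 all sets were higher (1.61, 0.58 and 1.85). The direction of this list over all probe sets was not tested. Cytosolic ribosomal protein genes were lower in 26 of 40 cases and higher in 7 (median -1.09) against those same shares, and with a common median 22 were lower and 14 higher.

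Different probe sets of a gene often disagreed. Of 1565 genes with several probe sets, 308 had sets called in both directions, 202 had all sets higher and 264 all sets lower. Atp5po, an ATP synthase subunit, was higher by 1.83 ± 0.10 in its brightest set and lower by -5.93 in its other set. Ndufb5, a complex I subunit, gave 1.88 and -3.59. The ribosomal protein Rpl11 was lower by -7.04 ± 0.22 in one set and by -1.42 in the other. For such genes the direction given here is that of the brightest set, and the part of the 3′ over 5′ ratio in the disagreement was not tested.

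Clock genes differed in both directions. Of 12 measured, 3 were higher and 5 lower (median -0.34), against 42.4% and 26.2% of all genes. Bmal1, the positive limb of the clock, differed by -3.12 ± 0.25 with 1 of 2 probe sets called, and the repressor Nr1d1 by -1.71 ± 0.11. Its paralogue Nr1d2 was higher by 0.98 ± 0.20 and Bhlhe41 by 1.22 ± 0.14. With the hour 6 arrays alone Nr1d2 differed by 0.49 and was not called. Of 21 immediate early genes 13 were higher and 4 lower (median 0.91), against the same shares of all genes. Egr2 differed by 3.35 ± 0.22, Klf4 by 3.16 ± 0.42 and Klf10 by 3.01 ± 0.19, while the phosphatase Dusp1 was lower by -4.28 ± 0.21. Egr1 was higher by 2.18 ± 0.57 in its brightest probe set, but 2 of its 4 probe sets were lower and the call was lost with the hour 12 arrays alone (0.66). Of 14 retinoid genes, 5 were higher and 6 lower (median 0.003), against 42.4% and 26.2% of all genes. The retinoid receptor Rxrg and the carrier Rbp4 were higher by 2.69 ± 0.17 and 2.79 ± 0.11, and Rdh10 and Crabp1 were lower by -3.42 ± 0.22 and -3.24 ± 0.30.

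The size of the tissue difference depended on the hour for a small set of genes. The difference at hour 12 minus that at hour 6, over ZT and CT jointly, passed for 99 probe sets (1.13%), 56 positive and 43 negative, in 51 genes. At an unadjusted level of 0.05, 1077 probe sets passed. With a single pineal array per condition this test rests on 2 pineal arrays at each hour. The intestinal-type peptide carrier Slc15a1 changed most. It read 5.81 and 5.17 on the hour 6 pineal arrays and 12.18 and 13.02 on the hour 12 arrays, with 4.82 to 6.83 on all retina arrays, an interaction of 7.10. Fcer1a read 11.66 and 11.85 at hour 6 and 15.34 and 15.41 at hour 12, an interaction of 4.03. The clock repressor Per2 read 6.47 and 6.07 at hour 6, below every retina array, and 10.44 and 11.10 at hour 12, above every retina array, an interaction of 4.0. The Per2 difference over all conditions did not pass (-1.02 ± 0.59, adjusted p = 0.144).

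Aanat gave an interaction of 3.76 ± 0.60 (adjusted p = 0.0168), from the same values that were set against the hour label of the pineal ZT12 array above. The splicing regulator Mbnl2 had 3.35 and the transcription factor Cebpb 2.64. In the other direction, the sphingosine receptor S1pr1 read 7.36 and 7.88 on the hour 6 pineal arrays and 5.61 and 4.58 on the hour 12 arrays, an interaction of -2.91. RT1-A3, Vtcn1 and Nudt4 had interactions of -2.82, -2.78 and -2.70. Among list members, Fos, Junb and Pf4 had -1.76, -2.40 and -2.31, and Pde4b, a cyclic AMP phosphodiesterase, and the clock output factor Dbp had 1.89 and 1.10.

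The calls on these interactions depended on the arrays used. For all 10 genes with the largest values, the call was lost without the arrays whose source label names brain, which include the pineal ZT12 array and leave 0 calls in all (1220 at an unadjusted level of 0.05), and with the pineal ZT12 array placed at ZT6. Their direction held in both, and without the brain-labelled arrays, with fewer arrays in the fit, the sizes stayed close to those above or larger (7.11 for Slc15a1, 4.57 for Fcer1a, 4.11 for Per2, 4.43 for Aanat, 4.14 for Mbnl2 and 2.20 for Cebpb, and -2.67 for S1pr1, -3.43 for RT1-A3, -3.43 for Vtcn1 and -2.59 for Nudt4). Slc15a1, Fcer1a, Per2 and Nudt4 were called in every other alternative run. The Aanat call was also lost without the pineal CT6 (3.45) or pineal CT12 array (2.89), the S1pr1 call without either of the same arrays, and the Vtcn1 call with all 16 arrays. Cebpb was called in 19 of 25 alternatives and lost its call without the pineal ZT6, ZT12 or CT12 array. Mbnl2 was called in 17 of 25 and RT1-A3 in 14 of 25, and single arrays of both tissues ended these calls. Without the second retina array at ZT6 or the pineal ZT6 array the count fell to 60 and 63, and without the pineal ZT12 array it was 151.

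**Figure D5:**
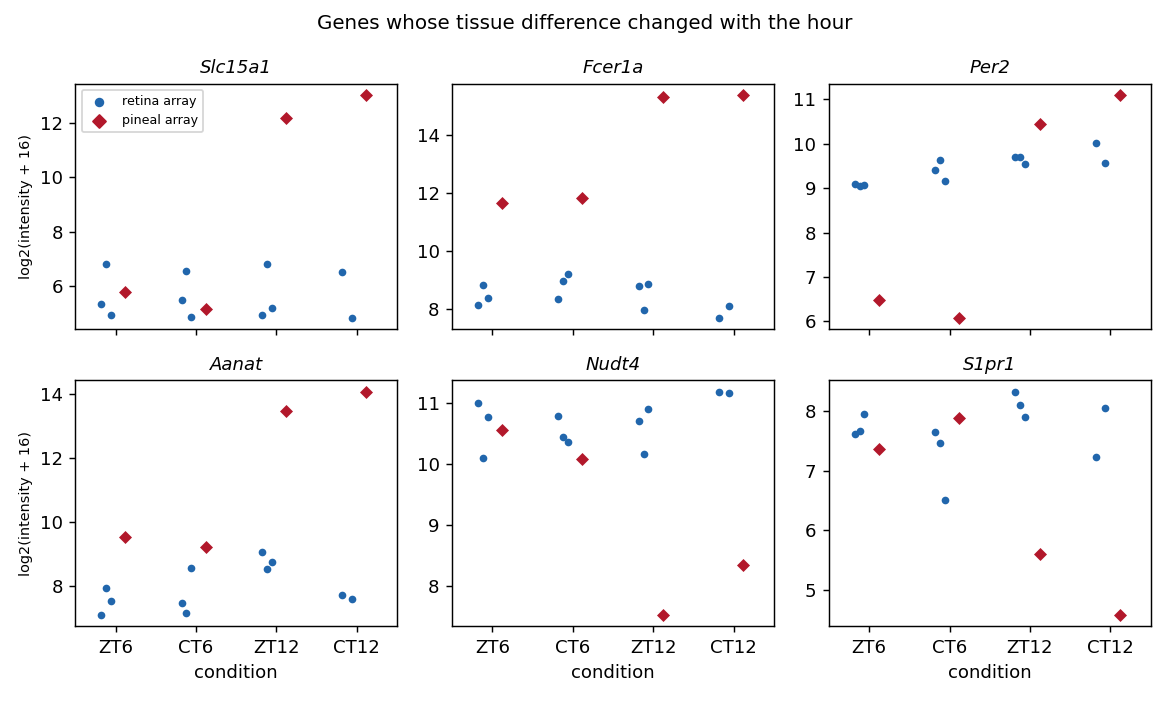
Log2 levels of 6 genes whose tissue difference changed with the hour, by condition, with blue circles for retina arrays and red diamonds for the single pineal array of each condition. In pineal, Slc15a1, Fcer1a, Per2 and Aanat are higher and Nudt4 and S1pr1 lower at hour 12 than at hour 6, on both ZT and CT scales.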

How the data were processed

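The authors deposited linear intensity values for 16 rat arrays in a series matrix, nearly equal in trimmed mean (2503.2 to 2505.9 with 2% trimmed at each end), while how they were summarized, background corrected and scaled is not given in the sources used here. Median intensities were 531.6 to 576.3 on pineal and 746.3 to 858.4 on retina arrays. Array data give no counting depth, the number of arrays limits the precision, and no detection calls were used. The 59 control probe sets were left out of the tests. Of the other 8740, 7006 carry 1 gene symbol in the platform annotation, 308 several and 1426 none. Of the 7006, 6985 matched the RefSeq table by Entrez ID, with 0 symbols changed. No pair of arrays held identical values.

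Values were quantile normalized over the 15 arrays and taken as log2(intensity + 16) in Python 3.11.15 and R 4.3.3. Tissue and condition were fitted with limma 3.58.1 (lmFit and eBayes, two-sided, 10 residual and 2.37 prior degrees of freedom), with Benjamini-Hochberg adjustment over all 8740 probe sets. The hour interaction was fitted to the same arrays with 9 residual degrees of freedom. A gene is represented by the probe set whose higher tissue mean is highest. A fold understates differences of dim genes. The procedure was tested on simulated data.

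Named genes are the 15 largest differences in each direction among called genes whose arrays did not overlap, all measured melatonin, rod and cone genes, up to 6 called members of each other list and the 10 largest called interactions. The control probe sets, the pinealocyte marker Drd4, Adra1b, Hk1, Ldhb, Pgk1, Nefl and the list members given with an interaction were added after their values were seen. The members and lists were chosen with earlier results of these data known. Alternatives were the scaling, offsets of 1 and 64, array weights, a robust trended prior, filters at the 40th percentile, the source label as a term, other sets of arrays or conditions, each hour alone and each array left out in turn. The first retina array at CT12 was left out by the rule that defines the comparison.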

Additional observations from a re-analysis of the deposited data

Results flagged for a closer look

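In the 4 pineal arrays, 8 of the 193 named genes had 1 array far from the others by Dixon's criterion for 4 samples. Chance alone passes about 5% of such groups, so this number is no more than chance gives. The pineal CT12 array was the lowest for B2m (14.77, with the others between 15.09 and 15.15), Chrnb3 (5.79, others 8.26 to 8.66) and Cryab (8.50, others 9.96 to 10.22). The pineal ZT12 array was the lowest for Grm6 (9.82, others 10.12 to 10.16), Rom1 (12.69, others 13.18 to 13.22) and Syt1 (5.71, others 8.21 to 8.41), and the highest for Gucy2f (8.32, others 5.77 to 6.15). The pineal ZT6 array was the lowest for Crybb2 (9.57, others 10.82 to 10.90).

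In 51 genes the pineal minus retina difference at hour 12 departed from that at hour 6 by the interaction test. The 10 largest of these were flagged. The departures were 7.10 for Slc15a1, 4.03 for Fcer1a, 4.0 for Per2, 3.76 for Aanat, 3.35 for Mbnl2 and 2.64 for Cebpb, and -2.91 for S1pr1, -2.82 for RT1-A3, -2.78 for Vtcn1 and -2.70 for Nudt4.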

How the results depend on the processing

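The counts of higher and lower probe sets stayed within 1.5 times of 3236 and 2470 in all alternatives run, from 2211 to 3754 higher and from 1982 to 2997 lower. The interaction count of 99 was less stable. It was 157 and 177 with filters on the higher tissue mean and on the mean over all arrays, 37 with array weights, 64 with the source label as a term, 32 with all 16 arrays, 62 with the pineal ZT12 array placed at ZT6 and 0 without the arrays whose source label names brain. Leaving out 1 array at a time gave 60 to 151. Of 193 named genes, 187 were called. On the tissue difference, 41 lost the call under some alternative and 3 gained one. Among the called genes 9 changed sign, and sign changes of genes not called were not counted. All 10 named interactions lost their call under at least 1 alternative. With the median over probe sets Atp5po turned to -2.05, Egr1 to -0.64, Myh11 to -0.02, Ndufb5 to -0.86 and Qdpr to -0.82, which uses other probes of the same genes. Pdc was 0.10 with a common median and Slc4a1 -0.01 with values as deposited. With the hour 6 arrays alone S1pr1 was 0.15 and Slc15a1 -0.19. The causes of the other changes were not tested. No paired analysis was possible because the pineal titles carry no replicate number. Dim genes, with levels near 5 in both tissues, are limited by signal over background.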
